A study of Mus musculus with 32 samples.

Results

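Arginine feeds reactions that bear on blood vessels and on macrophages, and the 7 genes described here take part in that chemistry: the cationic amino acid transporters Slc7a1 and Slc7a2, the nitric oxide synthases Nos3 and Nos2, the citrulline-recycling enzymes Ass1 and Asl, and the ornithine decarboxylase Odc1. They were chosen by symbol from a table of 22850 genes, and all 7 were found, each on 1 row. The table holds RNA-sequencing values of 3 cell types sorted from pancreatic islets, namely β cells, ECs (endothelial cells) and MΦs (macrophages). The mice were βVEGF-A; MIP-GFP, a model in which islet vessels expand and MΦs enter when VEGF-A is switched on. The question put to these genes is how their expression differed between the 3 cell types and whether it moved when VEGF-A was raised and then withdrawn.

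All mice were on a C57BL/6 background, were 8 to 16 weeks old, and carried the same 3 transgenes at every time point, the controls included. RIP-rtTA places the doxycycline (Dox)-responsive activator under the rat insulin promoter, so that TetO-VEGF-A, a human VEGF-A cDNA, is made in β cells when Dox is given, and MIP-GFP marks β cells with green fluorescent protein under the mouse insulin 1 promoter. No Dox mice received none, 1wk Dox mice had Dox at 5 mg/ml in their drinking water for 1 week, and 1wk WD mice had 1 week of Dox followed by 1 week without it. No group had Dox without TetO-VEGF-A, so effects of Dox itself and of VEGF-A cannot be told apart. ECs were sorted by CD31, MΦs by CD11b, and β cells by GFP among the cells negative for both, from islets of several mice combined into one sample. The No Dox, 1wk Dox and 1wk WD groups numbered 4, 5 and 3 for β cells, 4, 1 and 5 for ECs and 4, 2 and 4 for MΦs, 32 samples in all. The p-values below measure the spread between such pools. In the deposited values, 1wk WD β cell replicate 3 and all 1wk Dox samples of ECs and MΦs bear header numbers from a separate series. What that series stands for is not stated. In ECs and MΦs it cannot be told apart from 1wk Dox.

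By way of background, nitric oxide synthases turn arginine into nitric oxide and citrulline, and Ass1 and Asl turn citrulline back into arginine. Odc1 commits ornithine, another product of arginine, to the polyamines that growing cells need. In vessels, nitric oxide made by Nos3 relaxes smooth muscle and acts downstream of VEGF-A. In MΦs, high Nos2 is a textbook mark of inflammatory activation.

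The values are scores: the authors' normalized expression values, rounded, with 1 as the lowest. Scores are not divided by gene length, so levels are compared between samples and not between genes. Summed over genes, the scores ranged from 23465985 to 53441769 across samples, and the sequencing depth behind them is unknown. Tests were run with limma on log2(score + 1), and the call required at least a 2-fold difference together with a p under 0.05 after Benjamini-Hochberg adjustment over all genes tested. Each log2 fold change is given with its standard error (SE). Gene positions are mm9, the build to which the authors aligned.

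The sorted cells carried their own markers. The 8 EC markers summed to scores of 388798 to 593458 in ECs, 1719 to 3883 in MΦs and 1430 to 52595 in β cell samples. The 8 MΦ markers summed to 223407 to 410083 in MΦs and at most 5820 elsewhere, and the 9 β cell markers to at least 502570 in β cell samples and at most 46016 elsewhere. Several libraries stood apart. Their part in the results was not tested, and for the 7 genes several results, but not all, are given with and without them. The stromal gene Pdgfrb scored 80 and 66 in No Dox β cell replicates 1 and 2 but 13692 and 49477 in replicates 3 and 4, and 48280 and 40295 in 1wk WD β cell replicates 1 and 2. No Dox β cell replicates 3 and 4 also had the most of the acinar gene Cpa1 among β cell samples, 1202075 and 905275. Replicate 2 of the No Dox MΦs held 1179137 of the acinar gene Cpa1 and 27471 of Ins1, against at most 169983 and 3345 in the other 3. Neutrophil markers (4 genes) summed to 1216 to 2815 in MΦs and to at most 171 in the other cells.

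**Figure D1:**
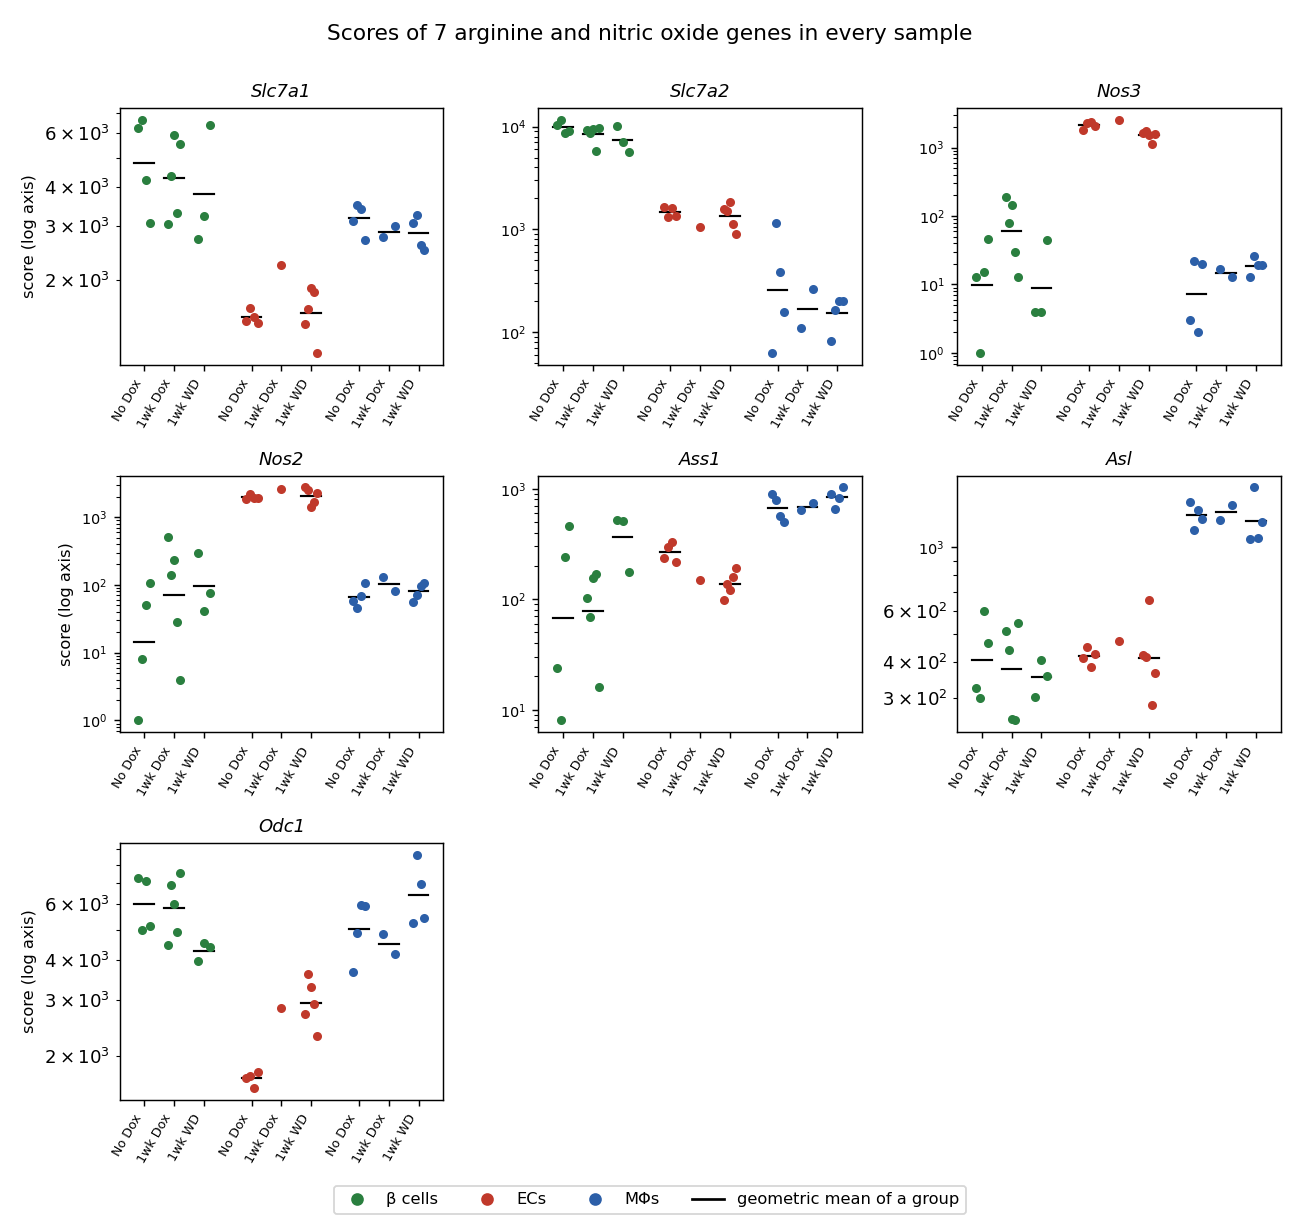
Score of each of the 7 genes in each of the 32 samples, on a log axis that differs between panels. Points are samples, coloured by cell type and ordered by time point, and lines are geometric means of groups with more than 1 sample. Nos3 and Nos2 lie above 1000 in every EC sample, and Slc7a2 is at least 5717 in every β cell sample.

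In sorted bulk samples, fewer cells of a type and less RNA per cell cannot be told apart, which holds for each result here.

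ECs and β cells differed most in the nitric oxide synthases and in Slc7a2, an arginine transporter. At No Dox, 5 of the 7 genes passed the call between ECs and β cells, 2 higher in ECs (Nos3 and Nos2) and 3 lower (Slc7a2, Odc1 and Slc7a1), where 37.7% of all genes passed. Between MΦs and β cells, 3 passed, with Ass1 and Asl higher in MΦs and Slc7a2 lower, against 43.2% of all genes. Between MΦs and ECs 6 passed, with Asl, Odc1 and Slc7a1 higher in MΦs and Nos3, Nos2 and Slc7a2 lower, against 33.5% of all genes. At 1wk WD 5 passed between ECs and β cells (39.9% of all genes), with Nos3 and Nos2 higher and Slc7a2, Slc7a1 and Ass1 lower in ECs. The same 3 as at No Dox passed between MΦs and β cells (46.2% of all genes), and 6 passed between MΦs and ECs (40.3% of all genes), with Asl, Odc1 and Ass1 higher and Nos3, Nos2 and Slc7a2 lower in MΦs. The median log2 fold change of the 7 genes at No Dox was 0.04 between ECs and β cells, -0.26 between MΦs and β cells and 1.07 between MΦs and ECs, and over all genes tested it was -0.07, -0.12 and 0.01.

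**Figure D2:**
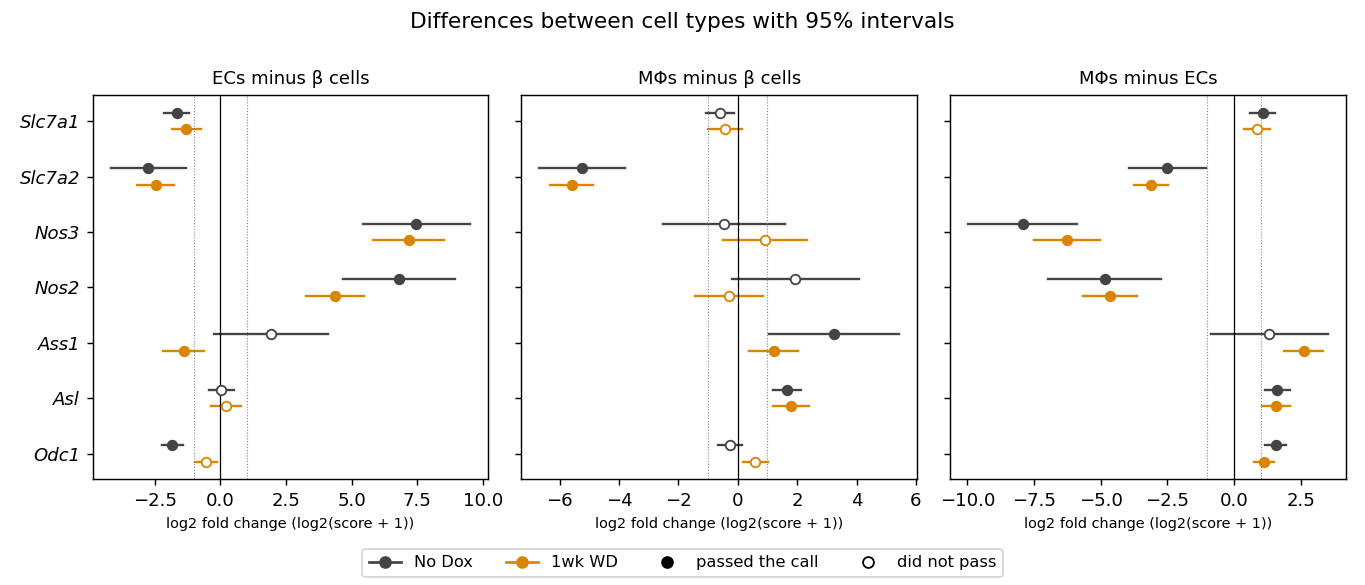
Log2 fold change of each gene between 2 cell types (horizontal axis, log2(score + 1) scale) with its 95% interval, at No Dox in grey and at 1wk WD in orange. Filled points passed the call and open points did not, and dotted lines mark 2-fold. Nos3 and Nos2 stand far to the right in ECs against β cells, and Slc7a2 lies to the left of the 2-fold line in all 3 panels.

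Slc7a2 (chr8:41947750-42007662, + strand), which encodes the transporter CAT2, followed the cell type in a clear order. It scored 10354, 11648, 8585 and 9145 in No Dox β cells, 1636, 1317, 1633 and 1336 in ECs, and 63, 1162, 386 and 158 in MΦs. The 3 groups did not overlap, and the 1162 belongs to the MΦ library with high Ins1 and Cpa1. The log2 fold change was -2.74 ± 0.66 (SE) in ECs against β cells (6.70-fold lower, adjusted p = 0.0046) and -5.24 ± 0.66 in MΦs against β cells (37.9-fold lower, adjusted p = 4.1e-05). MΦs were also below ECs, by -2.50 ± 0.66 (adjusted p = 0.0084). Without that MΦ library the differences were -5.97 from β cells and -3.22 from ECs, and without MΦ replicate 1, at 63, they were -4.57 and -1.83. At 1wk WD β cells scored 10236, 7045 and 5717, ECs 1564, 1494, 1850, 1125 and 901, and MΦs 82, 165, 200 and 200. The order was the same, with -2.47 ± 0.32 in ECs (adjusted p = 2.9e-05) and -5.60 ± 0.34 in MΦs (adjusted p = 3.4e-08) against β cells, and -3.13 ± 0.30 in MΦs against ECs (adjusted p = 9.0e-07). The model Gm17475 overlaps Slc7a2 on the opposite strand, and reads there cannot be told apart.

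Slc7a1 (chr5:149138986-149211480, - strand), which encodes the widely expressed transporter CAT1, was lowest in ECs. No Dox ECs scored 1471, 1619, 1511 and 1439, MΦs 3116, 3509, 3411 and 2702, and β cells 6221, 6643, 4230 and 3064. ECs lay below every sample of the other groups, whereas β cells and MΦs overlapped. ECs were 3.19-fold below β cells (-1.67 ± 0.22, adjusted p = 6.3e-05), and MΦs were 2.10-fold above ECs (1.07 ± 0.22, adjusted p = 0.0016). This was 0.96 with quantile normalization and 0.84 with scaling to equal sums, both under 2-fold. MΦs and β cells differed by -0.60 ± 0.22 (adjusted p = 0.033), under the 2-fold requirement, and by -1.02 without the No Dox β cell replicates 3 and 4. At 1wk WD ECs scored 1433, 1608, 1881, 1824 and 1153, β cells 2710, 3220 and 6367, and MΦs 3059, 3243, 2593 and 2493. ECs were again below β cells (-1.29 ± 0.25, adjusted p = 7.6e-04), by -2.03 without β cell replicates 1 and 2 and by -0.92, short of 2-fold, without replicate 3, and MΦs exceeded ECs by 0.86 ± 0.23 (adjusted p = 0.0063), short of 2-fold.

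Nos3 (chr5:23870628-23890292, + strand), the endothelial nitric oxide synthase, was far higher in ECs than elsewhere. It scored 1808, 2301, 2373 and 2077 in No Dox ECs, 13, 1, 15 and 46 in β cells, and 3, 22, 2 and 20 in MΦs. ECs did not overlap with either group, and β cells and MΦs overlapped fully. The difference was 7.47 ± 0.94 from β cells (177-fold higher, adjusted p = 4.9e-05), which became 8.65 without β cell replicates 3 and 4 and 6.28 without replicates 1 and 2, and -7.93 ± 0.94 for MΦs against ECs (adjusted p = 2.7e-05). At 1wk WD ECs scored 1603, 1746, 1545, 1136 and 1599, β cells 4, 4 and 45, and MΦs 13, 26, 19 and 19, again with ECs apart. The differences were 7.17 ± 0.63 from β cells (adjusted p = 8.4e-07; 8.24 without β cell replicate 3 and 5.04 without replicates 1 and 2) and -6.26 ± 0.58 for MΦs against ECs (adjusted p = 6.7e-07). Low Nos3 scores in β cells and MΦs carry little precision, so these folds are approximate on the log2(score + 1) scale. Nos3 overlaps the gene Atg9b and the model Gm15587 on the opposite strand, and the library preparation did not mark strand, so reads of the 3 cannot be told apart where they overlap.

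Nos2 (chr11:78734289-78773756, + strand), the inducible nitric oxide synthase best known from activated MΦs, was also highest in ECs. It scored 1863, 2182, 1921 and 1887 in No Dox ECs, 58, 46, 69 and 106 in MΦs, and 1, 8, 50 and 105 in β cells. Every EC sample was above every other sample, at No Dox and at 1wk WD, where ECs scored 2762, 2511, 1402, 1650 and 2254, MΦs 55, 72, 97 and 107, and β cells 296, 41 and 77. MΦs were 29.0-fold below ECs at No Dox (-4.86 ± 0.98, adjusted p = 0.0015) and 25.3-fold below at 1wk WD (-4.66 ± 0.47, adjusted p = 1.6e-06). ECs exceeded β cells by 6.79 ± 0.98 at No Dox (adjusted p = 1.4e-04) and by 4.37 ± 0.51 at 1wk WD (adjusted p = 1.0e-05), the latter 5.16 without β cell replicate 1 and 3.75 without replicate 2. The EC against β cell difference at No Dox was 8.85 without β cell replicates 3 and 4 and 4.74 without replicates 1 and 2. MΦs and β cells differed by 1.93 ± 0.98 at No Dox (adjusted p = 0.11), a value that passed the call at 3.99 without β cell replicates 3 and 4, at 2.80 without replicate 4 and at 2.50 with quantile normalization, and was -0.12 without replicates 1 and 2, so its direction rested on which β cell libraries were used.

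Ass1 and Asl, which rebuild arginine from citrulline, had their highest scores in MΦs. Asl (chr5:130487128-130501002, - strand), the argininosuccinate lyase, scored 1439, 1150, 1345 and 1257 in No Dox MΦs, 413, 453, 385 and 425 in ECs, and 326, 301, 603 and 465 in β cells. MΦs lay above all other samples, and ECs and β cells overlapped. The difference was 1.66 ± 0.22 from β cells (3.17-fold, adjusted p = 6.4e-05) and 1.63 ± 0.22 from ECs (3.09-fold, adjusted p = 8.0e-05), and at 1wk WD it was 1.79 ± 0.28 (adjusted p = 9.3e-05) and 1.57 ± 0.24 (adjusted p = 9.2e-05). ECs and β cells differed by 0.04 at No Dox, with a 95% interval of -0.44 to 0.52.

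Ass1 (chr2:31325727-31376192, + strand), the argininosuccinate synthase, scored 887, 796, 564 and 498 in No Dox MΦs, 236, 296, 332 and 217 in ECs, and 24, 8, 240 and 457 in β cells. MΦs did not overlap with the other groups, and the β cell libraries split into a low and a high pair, which are the pairs with low and high Pdgfrb. MΦs exceeded β cells by 3.24 ± 1.00 (adjusted p = 0.016), by 5.48 without β cell replicates 3 and 4, and by 1.01 without replicates 1 and 2. MΦs exceeded ECs by 1.32 ± 1.00 (adjusted p = 0.32) where the 3 cell types shared 1 estimate of the spread, and by the same 1.32 with an SE of 0.28 or 0.36 and past the call when either β cell pair was left out. ECs exceeded β cells by 1.92 ± 1.00 (adjusted p = 0.13), a difference of 4.16 without replicates 3 and 4 and of -0.31 without replicates 1 and 2. It passed the call in the former case, without replicate 4 alone (2.82) and with quantile normalization (2.22). At 1wk WD MΦs scored 899, 661, 822 and 1032, β cells 524, 515 and 178, and ECs 99, 137, 120, 158 and 190, so that the 3 groups did not overlap apart from the β cell sample at 178. MΦs were above ECs by 2.61 ± 0.34 (adjusted p = 1.7e-05) and above β cells by 1.21 ± 0.38 (adjusted p = 0.015). The latter was 0.70 and no longer past the call without β cell replicate 3, and 2.24 without replicates 1 and 2. ECs were 2.64-fold below β cells (-1.40 ± 0.37, adjusted p = 0.0058), and differed by -0.37 without the Pdgfrb-rich β cell replicates 1 and 2 and by -0.63 with quantile normalization, neither past the call.

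Odc1 (chr12:17551679-17558308, + strand), the first enzyme of polyamine synthesis, was lowest in ECs. It scored 1710, 1730, 1586 and 1781 in No Dox ECs, 3670, 4888, 5958 and 5939 in MΦs, and 7285, 4968, 7123 and 5130 in β cells. ECs lay below every other sample, and MΦs and β cells overlapped. ECs were 3.55-fold below β cells (-1.83 ± 0.18, adjusted p = 9.2e-06), and MΦs were 2.95-fold above ECs (1.56 ± 0.18, adjusted p = 2.4e-05). At 1wk WD ECs scored 2706, 3620, 3306, 2908 and 2306, β cells 3970, 4525 and 4406, and MΦs 5234, 8609, 6970 and 5454, with no overlap between the 3 groups. ECs then differed from β cells by -0.55 ± 0.19 (adjusted p = 0.024), under 2-fold, while MΦs were still 2.19-fold above ECs (1.13 ± 0.17, adjusted p = 7.5e-05), or by 0.99, just under 2-fold, without MΦ replicate 2. The Odc1 locus also holds SNORA42 on the same strand.

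Over time, none of the 7 genes passed the call in any of the 7 comparisons of time points within a cell type. In the 46 tests of a member, 5 had an unadjusted p under 0.05, of which 3 were in ECs at 1wk WD against No Dox. The share of all genes at that threshold is not given, so the 5 are not read as an excess. Nos3 was not tested in MΦs, where its mean score stayed under 20 at all 3 time points. The background differed between cell types. Of all genes tested in ECs, 1.76% passed between 1wk WD and No Dox. In MΦs 2.26% passed at 1wk Dox and 0.626% after withdrawal, both against No Dox, and 0.0866% when the latter group was set against 1wk Dox. In β cells 0.0122% passed at 1wk Dox against No Dox, and 0% in either comparison of the 1wk WD group.

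In ECs, Odc1 and Ass1 stood nearest to a call after VEGF-A withdrawal. Odc1 went from 1710, 1730, 1586 and 1781 at No Dox to 2706, 3620, 3306, 2908 and 2306 at 1wk WD, and the 2 groups did not overlap. The log2 fold change was 0.79 ± 0.13 with a 95% interval of 0.51 to 1.07 (adjusted p = 0.0091), past the p threshold and under the 2-fold one. Without 1wk WD replicates 1 and 4, the EC libraries with the highest Pdgfrb, it was 0.83. Ass1 went from 236, 296, 332 and 217 to 99, 137, 120, 158 and 190, again with no overlap, and differed by -0.95 ± 0.24 (95% interval -1.46 to -0.44, adjusted p = 0.045). It passed the call when 1wk WD replicate 4 or replicate 5 was left out, at -1.07 without the latter. Nos3 scored 1603, 1746, 1545, 1136 and 1599 at 1wk WD, each below the lowest No Dox EC sample of 1808, and differed by -0.49 ± 0.14 (adjusted p = 0.069). Nos2 overlapped between the time points and differed by 0.06 (95% interval -0.33 to 0.46). The other 3 members differed by -0.13 (Slc7a2), -0.02 (Asl) and 0.04 (Slc7a1), with all 3 intervals inside 2-fold. Markers of other cell types, and some of ECs, moved over the same samples. Of the 8 EC markers, Kdr and Flt1, the VEGF receptor genes, had lower scores at 1wk WD without overlap. Kdr scored 92107 to 105159 at No Dox and 39326 to 61402 at 1wk WD, and differed by -0.98 ± 0.13 (adjusted p = 0.0035). Flt1 scored 127207 to 138669 and then 72250 to 99647, and differed by -0.71 ± 0.11 (adjusted p = 0.0067). Tie1 scored 15864 to 18478 and then 12189 to 15665, also without overlap (-0.27 ± 0.11, adjusted p = 0.17), and the other 5 lay between -0.21 (Emcn) and 0.11 (Cdh5). All 5 acinar markers passed the call, lower by between -6.66 (Cela3b) and -6.08 (Ctrb1). They summed to 49743 to 1285796 at No Dox, 625 to 45753 at 1wk WD and 193 in the 1wk Dox sample. Without No Dox EC replicate 2, the library with the most acinar transcripts, the difference was -0.90 for Ass1 (adjusted p = 0.14) and 0.79 for Odc1 (adjusted p = 0.028). The part of acinar transcripts in the EC values over time was not tested.

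**Figure D3:**
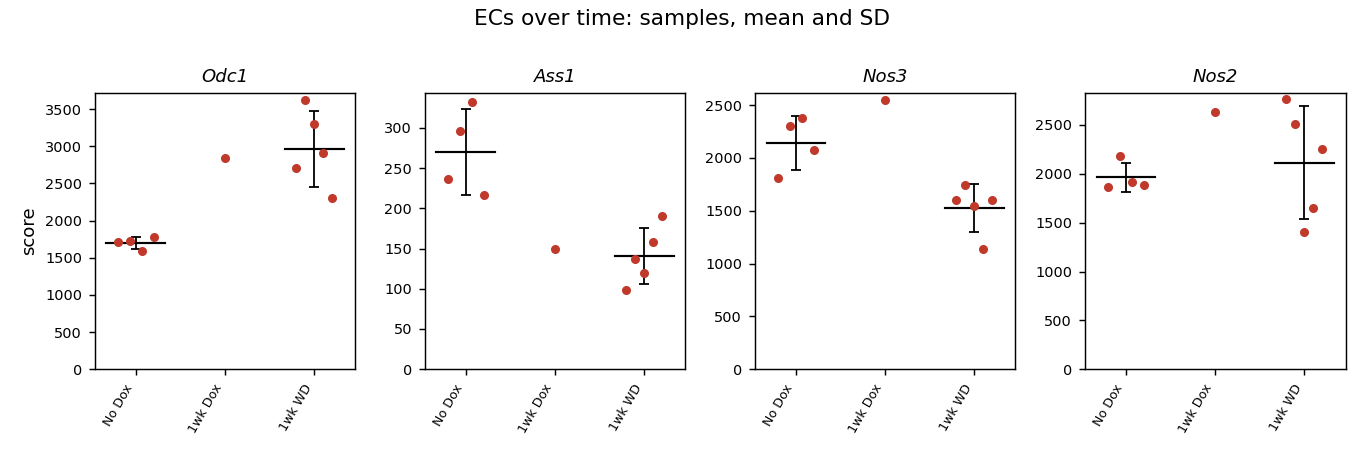
Scores of Odc1, Ass1, Nos3 and Nos2 in ECs, on linear axes from 0. Points are samples, and lines with bars are the mean and SD of the 4 No Dox and 5 1wk WD samples (1wk Dox is 1 sample). All 5 1wk WD samples lie above the No Dox samples for Odc1 and below them for Ass1 and Nos3, and the time points overlap for Nos2.

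The single 1wk Dox EC sample allows no test. It scored 2841 for Odc1, 150 for Ass1, 2546 for Nos3, 2634 for Nos2, 2227 for Slc7a1 and 1062 for Slc7a2. Of the 7 genes, 0 lay past 2-fold from the No Dox mean, where 10.7% of genes did. All 7 fell beyond the 4 No Dox samples, 5 above and 2 below, as did 62.1% of the 14047 genes compared for this sample. Its log2 difference from the No Dox mean was 0.74 for Odc1, -0.82 for Ass1 and 0.26 for Nos3, so that the sample lay within the 1wk WD samples for Odc1 and Ass1 and above all of them for Nos3.

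The promoters of Odc1 and Ass1, the pair that came nearest to a call in ECs, are shown with the motifs found in them. Promoter windows from RefSeq (GRCm38.p6), 250 bases before to 50 bases after a start site, were matched for 3 of the 7 genes (Odc1, Ass1 and Slc7a1). Capitals mark the GGGCGG box, to which Sp1 binds, and the CACGTG E-box, searched on both strands, and TATAAA was also searched.
Odc1, chr12:17544623-17544922, + strand: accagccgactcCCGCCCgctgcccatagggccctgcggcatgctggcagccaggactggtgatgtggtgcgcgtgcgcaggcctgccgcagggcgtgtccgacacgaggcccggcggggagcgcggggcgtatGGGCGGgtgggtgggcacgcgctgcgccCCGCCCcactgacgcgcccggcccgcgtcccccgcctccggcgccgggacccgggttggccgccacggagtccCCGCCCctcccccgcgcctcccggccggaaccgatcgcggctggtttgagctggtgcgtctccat
Ass1, chr2:31470020-31470319, + strand: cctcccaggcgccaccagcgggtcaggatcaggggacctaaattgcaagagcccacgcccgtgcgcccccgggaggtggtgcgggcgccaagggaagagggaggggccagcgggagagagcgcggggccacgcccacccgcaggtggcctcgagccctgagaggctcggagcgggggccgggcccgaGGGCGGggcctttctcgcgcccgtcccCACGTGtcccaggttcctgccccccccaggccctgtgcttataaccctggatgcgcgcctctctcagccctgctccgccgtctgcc
The Odc1 window held 4 GGGCGG boxes, starting 238, 116, 88 and 15 bases before the start site, and no E-box. The Ass1 window held 1 GGGCGG box 63 bases and 1 E-box 36 bases before its start. Neither held TATAAA. Of 32851 windows of this length, 35.7% held GGGCGG, 7.15% held CACGTG and 13.6% held TATAAA. These matches describe the letters only.

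In β cells the 3 genes whose scores spanned the widest fold range were Nos3, Nos2 and Ass1, and their values are given beside markers of other cell types. Nos3 scored 189, 78, 143, 30 and 13 in the 5 samples at 1wk Dox, against 13, 1, 15 and 46 at No Dox and 4, 4 and 45 after withdrawal. The 3 highest of these 5 libraries were those with the highest Cdh5, an EC cadherin, at 4829, 1394 and 2033, where the other 2 scored 88 and 19, and 7 of the 8 EC markers had the same 3 libraries highest. The log2 fold change at 1wk Dox against No Dox was 2.37 ± 1.11 (adjusted p = 0.72), and it was 1.18 without No Dox replicates 1 and 2 and 3.56 without replicates 3 and 4. Nos2 scored 509, 142, 230, 28 and 4 in those samples, in the same order as Cdh5 and 6 of the 8 EC markers in all, and differed from No Dox by 2.09 ± 1.47 (adjusted p = 0.80), a difference of 0.04 without No Dox replicates 1 and 2 and of 4.15 without replicates 3 and 4. In the 1wk WD β cells, by contrast, the highest Nos2 score of 296 fell in the library with the lowest Cdh5 score of 9. The β cell gate left out cells stained for CD31, and Pecam1, the gene for CD31, scored 106 to 7237 in the 1wk Dox β cells against at least 61523 in ECs. The part of EC transcripts in these β cell values was not tested.

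In β cells Ass1 scored 24, 8, 240 and 457 in the No Dox samples, then 102, 69, 155, 168 and 16 during Dox, then 524, 515 and 178 after withdrawal. The 3 scores above 400 fell in the 3 libraries with the highest Pdgfrb (49477, 48280 and 40295), which also had the highest Dcn and Lum, and the No Dox libraries with Pdgfrb at 80 and 66 had 24 and 8. The other 2 of the 5 stromal markers ranked the libraries differently, since replicate 1 at 1wk Dox, with an Ass1 score of 102, had Col1a1 at 47507 and Col1a2 at 36793, above No Dox replicate 4 at 33390 and 28711. Outside the 3 libraries with the highest Pdgfrb, the order of Ass1 differed from that of Pdgfrb too. Replicates 4 and 1 at 1wk Dox had Pdgfrb at 34404 and 29295 and Ass1 at 168 and 102. No Dox replicate 3 and 1wk WD replicate 3, with Pdgfrb at 13692 and 3980, had Ass1 at 240 and 178. The difference at 1wk WD against No Dox was 2.37 ± 1.28 (adjusted p = 0.62). Without No Dox replicates 3 and 4 it was 4.60 ± 1.01 and passed the call, and without replicates 1 and 2 it was 0.13. The part of stromal transcripts in these values was not tested.

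**Figure D4:**
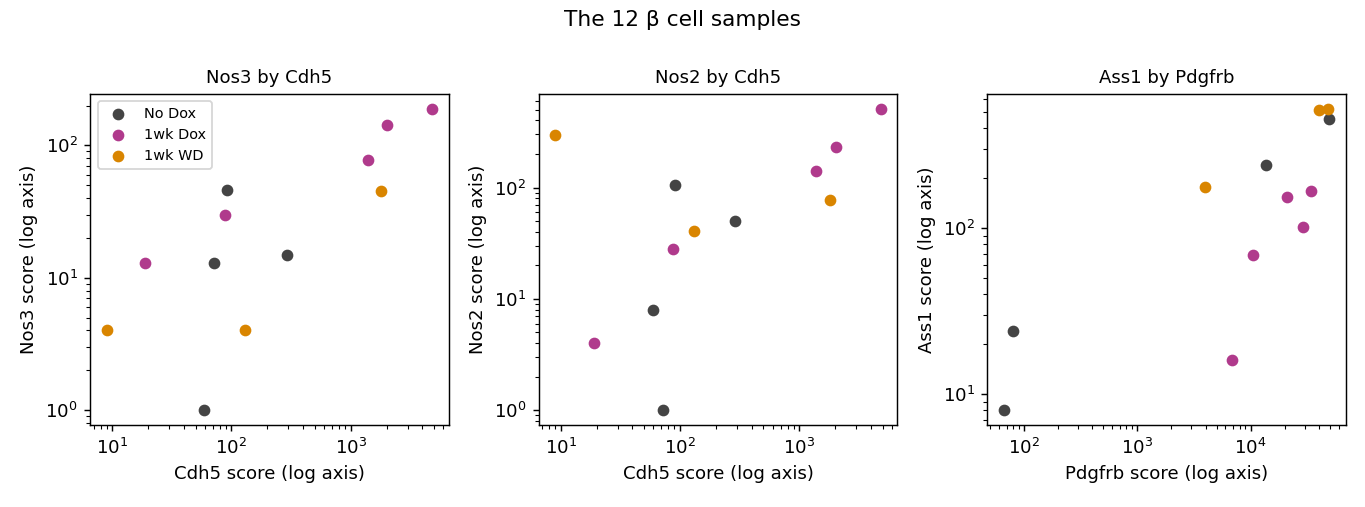
The 12 β cell samples, with Nos3 and Nos2 against the EC gene Cdh5 and Ass1 against the stromal gene Pdgfrb, all scores on log axes and coloured by time point. Nos3 is highest at 189 where Cdh5 is 4829, and the 3 Ass1 scores above 400 sit where Pdgfrb is at least 40295. Dcn and Lum have the same 3 libraries highest, and Col1a1 and Col1a2 do not. Among the other libraries the order of Ass1 differs from that of Pdgfrb.

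The remaining members were steadier in β cells. Slc7a2 stayed between 5717 and 11648 in all 12 samples, and Slc7a1 between 2710 and 6643. Odc1 scored 3970, 4525 and 4406 at 1wk WD, each below the lowest No Dox sample of 4968, and differed by -0.49 ± 0.22 (adjusted p = 0.61).

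In MΦs none of the 6 genes tested passed the call. Nos2 scored 131 and 81 in the 1wk Dox samples and 55, 72, 97 and 107 in those of 1wk WD, and differed from No Dox by 0.62 (95% interval -0.49 to 1.73) and 0.26 (-0.64 to 1.17), so that a 2-fold rise lies within its intervals. Ass1 scored 638 and 738, then 899, 661, 822 and 1032, and differed by 0.04 (-0.54 to 0.62) and 0.34 (-0.13 to 0.81). Asl differed by 0.03 (-0.39 to 0.46) and -0.07 (-0.42 to 0.27). Odc1 scored 4828 and 4192 during Dox, then 5234, 8609, 6970 and 5454 after withdrawal, without overlap, and differed by 0.52 ± 0.23 between them (adjusted p = 0.49). Slc7a2 scored 110 and 264, then 82, 165, 200 and 200, and its 95% interval against No Dox ran from -2.49 to 1.29 and from -2.30 to 0.78. The No Dox mean includes replicate 2 at 1162, the library with high Ins1 and Cpa1, beside 63, 386 and 158. The differences without that library are not given. Nos3 stayed at 2 to 26 in all 10 MΦ samples.

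The response to withdrawal was then compared between cell types. For Odc1 the log2 difference between 1wk WD and No Dox was 0.79 in ECs and -0.49 in β cells, and the responses differed by 1.28 ± 0.27 (adjusted p = 0.031), a test that 0.383% of all genes passed. It was the 1 member called, and its adjusted p ranged from 0.0037 to 0.21 over the alternatives tried. The other 3 comparisons of responses called 0 members, where 0.265% of all genes passed for MΦs against ECs at 1wk WD, 0.0413% for MΦs against β cells at 1wk WD and 0.0354% for MΦs against β cells at 1wk Dox. With an unadjusted p under 0.05 there were 0, 1 and 0 members in these 3, and the share of all genes at that threshold is not given. Without No Dox β cell replicates 3 and 4, the counts of members called for ECs and for MΦs against β cells at 1wk WD were 3 and 2, with Ass1 and Nos2 added, and without replicates 1 and 2 both were 0. The share of all genes that passed in these settings is not given. Calls over all genes in β cells over time also rose without replicates 3 and 4, as the last paragraph shows, so the added calls are not read as particular to the members.

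The wider pathway was followed in 47 further genes in 8 lists. Over time, 2 of them passed the call, both among the 40 tested in ECs at 1wk WD, where 1.76% of all genes passed. They were Gucy1a3 and Gucy1b3, the subunits of the soluble guanylate cyclase through which nitric oxide raises cGMP. Gucy1a3 went from 180, 397, 249 and 627 to 2214, 1100, 1191, 3970 and 1108, and rose by 2.35 ± 0.42 (adjusted p = 0.013). Gucy1b3 went from 267, 481, 243 and 449 to 1498, 600, 885, 2100 and 683, and rose by 1.57 ± 0.35 (adjusted p = 0.028). The stromal gene Pdgfrb, a pericyte marker, went from 423, 703, 468 and 1206 to 4647, 1975, 636, 3682 and 2229 in the same samples, and the 2 highest Gucy1a3 scores fell in the 2 samples with the highest Pdgfrb, as held for 3 of the 5 stromal markers. The 5 stromal markers summed to 535 to 1418 at No Dox and to 1131 to 5570 at 1wk WD. Without 1wk WD replicates 1 and 4 the differences were 1.80 for Gucy1a3 and 1.05 for Gucy1b3, and the second no longer passed. Gucy1a3 also lost the call without No Dox replicate 3, and Gucy1b3 without No Dox replicate 1 or 3 or 1wk WD replicate 1 or 3. Over all alternatives the adjusted p ranged from 0.0075 to 0.059 for Gucy1a3 and from 0.017 to 0.099 for Gucy1b3. The calls held in 19 and 14 of 21 alternatives, and not every one that changed them is named here. The part of pericyte transcripts was not tested. In their list, 2 of 5 tested genes passed, both higher, beside the 1.76% of all genes, with a median of 1.57 beside 0.00 over all genes. Nostrin, which encodes a protein that traffics Nos3, scored 6989 to 7995 at No Dox and 4036 to 6101 at 1wk WD, with a difference of -0.60 ± 0.12 (adjusted p = 0.021), under 2-fold.

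Between cell types, the list of nitric oxide synthase regulators with Nos1 holds 7 genes. At No Dox 5 were higher and 1 lower in ECs than in β cells, where 37.7% of all genes passed in either direction, and 4 were lower and 0 higher in MΦs than in ECs, where 33.5% passed. The medians were 3.30 and -2.46, beside -0.07 and 0.01 over all genes. Cav1, whose product holds Nos3 inactive at caveolae, scored 13578 to 19556 in No Dox ECs, 26 to 2019 in β cells and 32 to 67 in MΦs, differing by 6.15 ± 1.05 between ECs and β cells (adjusted p = 4.7e-04), by 8.48 without β cell replicates 3 and 4 and by 3.82 without replicates 1 and 2. Ddah2, which degrades the inhibitor asymmetric dimethylarginine, scored 1023 to 1458 in ECs and 1 to 54 in MΦs. Nos1, the neuronal synthase, was the one lower in ECs, at 218, 255, 125 and 376 in No Dox β cells and at most 9 in ECs and 3 in MΦs. It differed by -5.52 ± 0.58 in ECs against β cells (adjusted p = 1.4e-05).

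Of the genes downstream of nitric oxide, 6 of the 6 tested were lower in MΦs than in β cells at No Dox, where 43.2% of all genes passed in either direction, and 3 were lower in ECs, where 37.7% passed. The medians were -4.23 and -2.67, beside -0.12 and -0.07 over all genes. Pde5a, which breaks down cGMP, scored 7899 to 24683 in β cells, 947 to 1160 in ECs and 161 to 483 in MΦs. In this list 4 of the 6 went with Pdgfrb in the No Dox β cells. In replicates 1 to 4 Gucy1a3 scored 183, 167, 4503 and 15662, Gucy1b3 202, 170, 3504 and 13820, Gucy1a2, another guanylate cyclase subunit gene, 615, 800, 4901 and 16115, and Prkg1, a cGMP-dependent kinase gene, 460, 336, 2602 and 10343. Without replicates 3 and 4, 4 of the 7 genes then tested were lower in MΦs, with a median of -1.66, and the differences of -0.42 for Gucy1a3 and -0.71 for Prkg1 did not pass. In ECs 3 were then lower and 1 (Prkg1) higher, with a median of -0.89, and without replicates 1 and 2, 5 were lower, with a median of -4.51. The share of all genes that passed in these settings is not given. The part of stromal transcripts was not tested.

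The other routes of arginine were compared at No Dox, where 37.7% of all genes passed in ECs and 43.2% in MΦs, both against β cells. Slc7a7, a part of the y+L transporter, was the 1 of 4 uptake genes called against β cells at No Dox, higher in ECs (3.32 ± 0.40, adjusted p = 3.8e-05) and MΦs (3.06 ± 0.40) than in β cells. Of 6 genes from ornithine to glutamate and proline, 3 were lower in ECs than in β cells and 0 higher. Without β cell replicates 3 and 4, Oat (3.08) and Prodh (3.36) were called higher in ECs. Without replicates 1 and 2 Prodh was called lower (-1.84), and Oat differed by -0.97 (adjusted p = 0.028), under 2-fold. The direction of each thus turned with the β cell libraries used. Pycr1, the last step of proline synthesis, scored 739 to 2047 in β cells and 21 to 56 in ECs. Of 8 polyamine genes, Sat1, which acetylates polyamines for export, was higher in ECs (2.37 ± 0.30) and MΦs (3.32 ± 0.30) than in β cells, and Srm, the spermidine synthase, was lower in ECs (-2.51 ± 0.53). In all, 3 of the 8 passed in ECs and 4 in MΦs, near the shares of all genes. Gatm, the first enzyme of creatine synthesis, scored 3161 to 6933 in No Dox β cells and 3110 to 8610 in MΦs, against 24, 718, 39 and 13 in ECs, where the 718 fell in the EC library with the highest Cpa1 (177586). Gatm differed by -6.14 ± 0.96 in ECs against β cells. Of 6 genes of the tetrahydrobiopterin cofactor, 3 passed between ECs and β cells, with Gchfr higher in ECs and Pts and Qdpr lower. Without β cell replicates 3 and 4, 5 of the 6 passed, with Spr (1.45) and Gch1 (-1.43) added. Without replicates 1 and 2 Spr was at 0.11 and Gch1 at 0.15, neither past the call, so that Gch1 turned in direction. The share of all genes that passed with replicates left out is not given. Qdpr differed by -0.88 and no longer passed without β cell replicates 1 and 2. Of 4 tested urea cycle genes outside the members, Nags was lower in ECs (-4.37 ± 0.64) and the mitochondrial carrier gene Slc25a2 higher (3.43 ± 0.85).

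The genes whose pattern was most like that of each member were found by Pearson's r of log2(score + 1) over the 32 samples, among 16968 genes. These r describe samples that share their cell type and are given without a test. Nos3 was most like Fam167b (0.97), Dok4 (0.96) and the VEGF receptor gene Flt1 (0.96), and Nos2 most like Vamp5 (0.96), Kank3 (0.96) and the VEGF co-receptor gene Nrp2 (0.96). Slc7a2 was most like Rph3al, Bmpr1a and Pkia (each 0.97), and Slc7a1 most like Vdr, Pon3 and Rhbdd2 (each 0.95). Ass1 was most like Cd37 (0.93), Slco2b1 (0.92) and Maf (0.91), and Asl most like Klra17, Ube2f and Slc13a3 (each 0.93). Odc1 was most like Myc (0.89), Irs2 (0.88) and Negr1 (0.88).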

How the data were processed

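RNA of sorted β cells, ECs and MΦs was amplified and sequenced as 50 bp paired-end reads, without marking strand. Reads were aligned by the authors to mm9 with TopHat 2.0 and scaled by TMM in Avadis NGS. Each deposited value is a score, a TMM-scaled expression level that the authors had rounded, never below 1, so that no read total is known and no counting interval can be given. Of 38 columns of values, 32 belong to the samples here, and the other 6 were not used.

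Samples were grouped by their labels. limma 3.58.1 (R 4.3.3, with a mean-variance trend) was run on log2(score + 1). Genes entered a fit if their mean reached 20 in at least 1 of its groups. Fits held the time points of 1 cell type (ECs without the single 1wk Dox sample), the 3 cell types at 1 time point, or 8 groups for differences of responses, 17 comparisons in all. The call was a 2-fold difference with a Benjamini-Hochberg adjusted p under 0.05. The code was tested on simulated data.

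The members and gene lists were chosen with earlier results of these data known. Some genes of the set are not reported here, and counts leave them out. The text names the 7 others, at most the 2 largest called differences per pathway list and comparison, and the 3 genes most like each member. Nostrin (at 1wk WD), Qdpr, Oat, Prodh, Spr, Gch1, Gucy1a2, Prkg1 and the single marker genes were named after their values were seen. No samples were duplicates, since at least 71.0% of genes differed in score between any pair. Alternatives covered the pseudocount, the filter, the scaling, the estimate of spread, a replicate block and samples left out.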

Additional observations from a re-analysis of the deposited data

Results flagged for a closer look

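Slc7a2 at 1wk Dox in β cells scored 5779 in replicate 4, far below the other 4 samples (8714 to 9695). That library had the lowest Ins1 of its group (218872, against 756100 to 1757836), the highest Pdgfrb (34404), the T cell gene Cd3e at 3788 against 5 to 94, and the smallest sum of scores of all samples (23465985). It was the 1 such sample among 42 groups of a gene examined, and chance marks about 1 group in 20. The Odc1 response to 1wk WD differed between ECs and β cells by 1.28 on the log2 scale, by the test of the difference itself (limma, adjusted p = 0.031).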

How the results depend on the processing

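The number of members called was 0 in the 7 comparisons of time points under the alternatives tried, except 1 in β cells at 1wk WD against No Dox without No Dox replicates 3 and 4 (Ass1), and 0 to 1 in ECs when 1 sample was left out (Ass1, without 1wk WD replicate 4 or 5). The difference between EC and β cell responses at 1wk WD was the least stable count. Its 1 call was 0 with scaling to equal sums, with the spread estimated per group and without No Dox β cell replicates 1 and 2, and 3 without replicates 3 and 4. It ranged from 0 to 2 when 1 sample was left out, with 0 without any of the EC No Dox samples, β cell No Dox replicate 1, β cell 1wk WD replicates 1 or 2 or EC 1wk WD replicates 3 or 4, and 2 without β cell No Dox replicate 4. The difference between MΦ and β cell responses at 1wk WD had 2 calls without No Dox β cell replicates 3 and 4. Direction was followed for members that, with all samples in, differed by at least 2-fold or had an adjusted p under 0.05. Without No Dox β cell replicates 1 and 2, 4 of these values turned in direction: Nos2 in MΦs against β cells at No Dox (-0.12), Ass1 in ECs against β cells at No Dox (-0.31), and in MΦ minus β cell responses Ass1 at 1wk WD (0.20) and Nos2 at 1wk Dox (0.59). Smaller differences may have turned too and are not counted. The cause was not tested.

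Members called between cell types were 3 to 5 for MΦs against β cells, 5 to 6 for ECs against β cells and 5 to 7 for MΦs against ECs at No Dox, and 3 to 5, 4 to 5 and 5 to 6 at 1wk WD. They stayed within 1.5 times except that the 3 for MΦs against β cells became 5 without No Dox β cell replicates 3 and 4 (Nos2 and Slc7a1 added) and 5 without 1wk WD β cell replicates 1 and 2 (Nos3 and Slc7a1 added, against the 1 β cell sample left). Of 42 pairs of same-numbered samples, 10 deviated together at a correlation over 0.1, so the numbers were not taken as pairs. With the replicate block, members called in MΦs against ECs at 1wk WD were 6, and this and every other member count was that of the fit without the block. The settings without 1wk WD EC replicates 1 and 4 and without 1wk WD β cell replicates 1 and 2 were chosen after seeing the data.

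Over all genes, calls in β cells were 1199 at 1wk Dox and 1424 at 1wk WD without No Dox replicates 3 and 4, against 2 and 0, and 86 and 5 with equal sums. In ECs 250 became 76 without the trend and 75 to 311 when 1 sample was left out. In MΦs against No Dox, 340 at 1wk Dox became 3 and 94 at 1wk WD became 43 with the replicate block, and they became 52 and 11 without the trend. The 65 calls in the EC minus β cell response ranged from 5 to 911 when 1 sample was left out and were 246 with equal sums. Equal sums moved the median of all genes to 0.62 in β cells at 1wk Dox, and quantile normalization moved it to 0.30 in ECs against β cells at 1wk WD, where calls split 4060 higher and 2996 lower against 2431 and 4134. Higher and lower calls also shifted from 242 and 98 to 445 and 52 (MΦs, 1wk Dox against No Dox), from 63 and 31 to 126 and 18 (MΦs, 1wk WD against No Dox), from 2704 and 3465 to 3698 and 2870 (ECs against β cells, No Dox) and from 21 and 44 to 9 and 237 (EC minus β cell response) with equal sums, and from 3156 and 4444 to 4514 and 3526 (MΦs against β cells, 1wk WD) with quantile normalization. Depth is unknown, and scores near 1 (Nos3 in some β cell and MΦ samples, and Nos2 in 3 β cell samples) carry little precision.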
